A study of Mus musculus with 9 samples.

Results

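The 10 genes of the class A, B and F scavenger receptors were taken by symbol from the count tables, out of 23238 gene symbols in all. They were 5 genes of class A (Msr1, Marco, Scara3, Scara5 and Colec12), 3 of class B (Cd36, Scarb1 and Scarb2) and 2 of class F (Scarf1 and Scarf2). Each of these symbols stood on 1 row of each table. RNA came from microglia sorted from brains of adult female wild-type C57BL/6N mice as CD45+ CD11b+ P2ry12+ cells, on day 1. Normal mice had received nothing, NMO mice had received patient NMO-IgG with human complement in the striatum of one side, and NMO+CL mice had also been given clodronate liposomes intraperitoneally ahead of the same injection. Each group had 3 libraries, and each library held the cells of 3 pooled mice. No group here received control IgG, complement alone or empty liposomes, so the needle, the antibody and the complement cannot be told apart, nor can clodronate and its carrier.

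Scavenger receptors are membrane proteins that bind polyanionic and lipid-rich ligands such as modified low-density lipoprotein, bacterial surfaces and cell debris, and carry many of them into the cell. Class A receptors mostly have a collagen-like stalk, class B receptors cross the membrane at both ends and handle lipids, and class F receptors carry repeated EGF-like domains. Resident microglia are known to clear debris, and Msr1 and Marco are best known from macrophages.

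Levels are given as CPM, the counts of a gene scaled to a common library size after TMM normalization. A gene was called when its p value, from the quasi-likelihood test of edgeR and adjusted over all 12292 tested genes, was under 0.05. Libraries held 5788234 to 7837219 counts. The ribosomal RNA entry Rn45s made up 16.0% (NMO replicate 2) to 31.0% (Normal replicate 1) of these, so the depth left for other genes was smaller. In CPM, 3 counts, the upper limit allowed by a count of 0 at 95% confidence, equalled 0.358 to 0.504. Such limits cover counting error only. The 8 microglia markers summed to between 19280 and 37090 CPM in every library, with all 8 detected. NMO replicate 2 stood apart. It had no count of 41 genes that held at least 20 counts in each of the other libraries, against 0 to 13 such genes elsewhere.

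Msr1 and Marco were the members that changed. Msr1 was near 0 in Normal microglia, rose in NMO and was higher again in NMO+CL. Marco had no count in Normal, rose in NMO, and in NMO+CL lay within the range of the NMO libraries. In sorted bulk RNA, fewer cells of a type and less RNA per cell cannot be told apart. The other 5 tested members were called in no comparison, and 3 members had too few reads to test. In NMO against Normal 2 of the 7 tested members were called higher and 0 lower, while 0.472% of all tested genes were called higher and 0.0244% lower. Between NMO+CL and NMO 1 was called higher and 0 lower, beside 0.529% and 1.07% of all genes. Between NMO+CL and Normal 2 were called higher and 0 lower, beside 4.78% and 4.43% of all genes. Without the adjustment edgeR would also have passed Scarf2 in NMO against Normal (adjusted p = 0.504), and Scarb1 and Scarb2 in NMO+CL against Normal (adjusted p = 0.199 and 0.125). Of the 12292 genes 1169 and 2747 would have passed in these comparisons.

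Groups were also compared by whether their libraries overlapped. All 3 NMO libraries lay above all 3 Normal libraries for Msr1, Marco and Scarf2, and below them for 0 of the 7 members, against 9.21% above and 8.2% below among all genes tested. All NMO+CL libraries lay above all NMO libraries for Msr1 and Scarb1 and below them for Scarf2 (all genes, 7.89% above and 9.22% below). Against Normal, all NMO+CL libraries lay above for Msr1, Marco and Scarb1 and below for Scarb2 (all genes, 13.8% above and 14.9% below). The comparisons share libraries, so their counts are not independent of each other. Median log2 fold changes of the 7 tested members were 0.46, -0.45 and 0.39 in the 3 comparisons, where those of all tested genes were -0.01, -0.01 and -0.01.

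**Figure D1:**
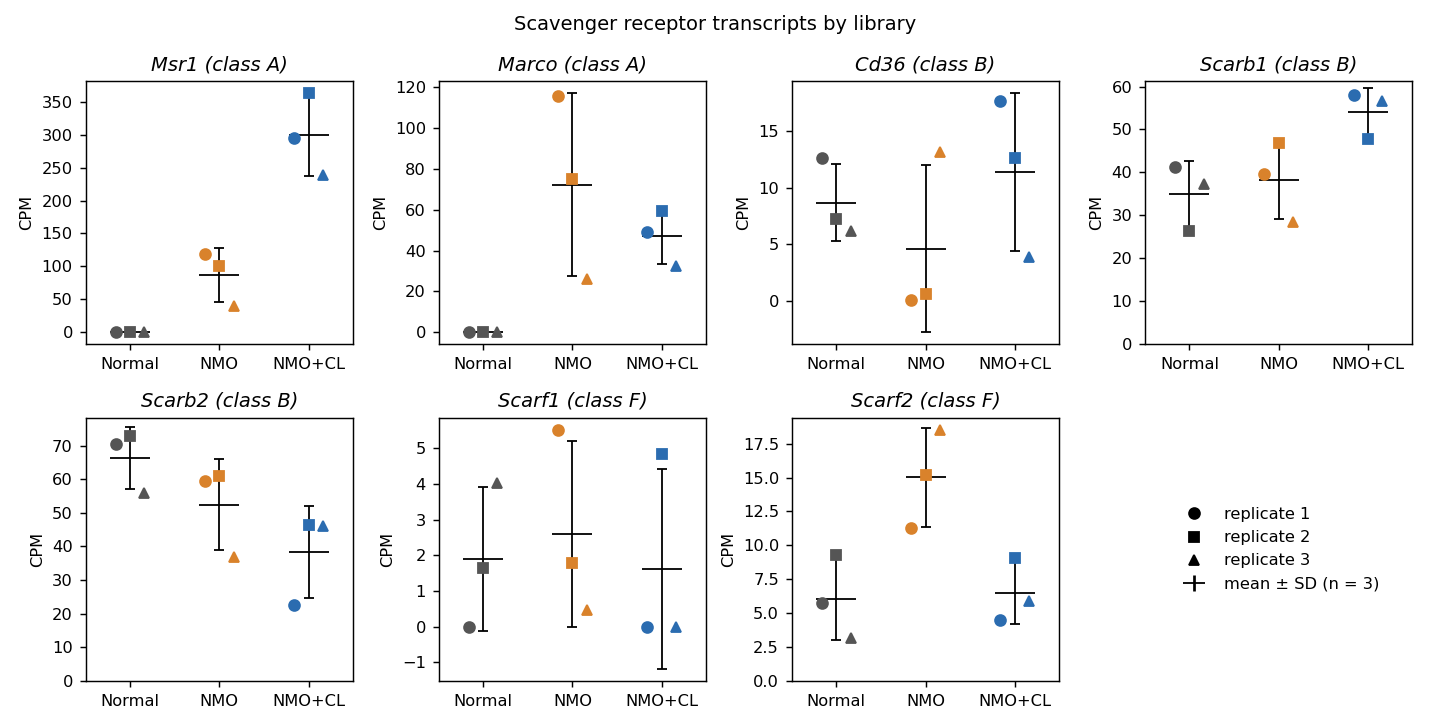
Transcript level of the 7 tested members (y axis, CPM, linear) in each library by group, with replicates 1, 2 and 3 as circle, square and triangle, and the mean ± SD (n = 3) as a bar. Msr1 and Marco were at or near 0 in Normal, Msr1 was highest in the NMO+CL libraries (238.7 to 363.2 CPM), and the NMO libraries of Cd36 fell into 2 near 0 and 1 at 13.1 CPM.

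Msr1 (chromosome 8, 39581685 to 39642673, minus strand, GRCm38) encodes scavenger receptor A, a trimeric receptor for modified lipoproteins. The Normal libraries held 3, 0 and 4 counts of it, or 0.477, 0 and 0.672 CPM. The NMO libraries had 118.7, 101.0 and 39.95 CPM, from 946, 845 and 250 counts. The NMO+CL libraries had 294.5, 363.2 and 238.7 CPM, from 2022, 2246 and 1493 counts. The 3 groups did not overlap, and NMO replicate 3 was the lowest of the injected libraries.

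Against the 7 counts in all of Normal, the summed Msr1 counts per library size were 243.8 times as high in NMO (exact 95% interval 118.1 to 607.3) and 805.5 times as high in NMO+CL (390.7 to 2004). These intervals cover counting error only. The model gave Msr1 a log2 fold change of 7.80 (standard error 0.55, adjusted p = 8.86e-07) for NMO against Normal. Single Normal libraries moved it from 7.20 (without Normal replicate 2) to 8.42 (without Normal replicate 3), and it was called in both. From NMO to NMO+CL it gained 1.79 (standard error 0.34, adjusted p = 0.0131), a 3.45-fold difference. Without NMO+CL replicate 2, the library with the most Msr1, this value was 1.62 and was not called (adjusted p = 0.0779). The call of NMO against Normal was lost with limma-voom, at 8.03 on the log2 scale (adjusted p = 0.135). The difference of NMO+CL from Normal was 9.58 (adjusted p = 4.24e-08), and each of the 16 alternatives called it, with 8.98 without Normal replicate 2 and 10.22 without Normal replicate 3.

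Marco (chromosome 1, 120474538 to 120505024, minus strand, GRCm38) encodes a class A receptor for bacteria and particles. It had 0 counts in each Normal library. NMO libraries had 923, 630 and 164 counts, or 115.8, 75.28 and 26.21 CPM. The NMO+CL libraries had 338, 367 and 202 counts, or 49.23, 59.35 and 32.29 CPM. All 6 libraries of injected mice thus held Marco transcripts, with the lowest and the highest value both in NMO.

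With 3 counts allowed in each Normal library, the mean Marco level of NMO was 151.8 times that limit, and the mean of NMO+CL 98.38 times. These sizes take no account of the spread between libraries and were not tested. The edgeR test called Marco higher in NMO against Normal (adjusted p = 1.27e-05) and in NMO+CL against Normal (adjusted p = 6.07e-06). Marco was higher in 3 of 3 libraries in both. The first call was lost with limma-voom (adjusted p = 0.115) and held in the other 15 alternatives. The second held in all 16. Marco differed by -0.63 on the log2 scale between NMO+CL and NMO (standard error 0.43, adjusted p = 0.609), and this value ran from -1.03 without NMO replicate 3 to -0.09 without NMO replicate 1.

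The window around the Marco transcription start (250 bases before it and 50 after, RefSeq, GRCm38.p6, chr1:120504975-120505274, minus strand) is printed because Marco had 0 counts in Normal and 164 to 923 after injection. Capitals mark matches to 6 motifs searched on both strands. These were AP-1 (TGANTCA), the PU.1 core (GAGGAA), C/EBP (TTGCNNAA), NF-kB (GGGA and CC with any 4 bases between), STAT (TTCNNNGAA) and the CLEAR core (CACGTG).
Marco: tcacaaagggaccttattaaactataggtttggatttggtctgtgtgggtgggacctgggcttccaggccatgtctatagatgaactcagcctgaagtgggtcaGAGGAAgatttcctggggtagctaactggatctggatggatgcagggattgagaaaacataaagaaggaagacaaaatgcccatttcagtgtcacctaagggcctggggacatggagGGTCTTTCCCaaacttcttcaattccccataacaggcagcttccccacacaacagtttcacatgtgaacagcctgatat

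The capitals hold 1 match to the PU.1 core, starting 146 bases before the start site, and 1 match to the NF-kB letters on the other strand, starting 29 bases before it. They do not overlap. Of 32817 RefSeq windows of the same length, 28.3% held the PU.1 core and 20.7% the NF-kB letters. The other motifs were present in 7.81% (AP-1), 10.8% (C/EBP), 8.29% (STAT) and 7.15% (CLEAR core) of windows. Windows were listed for 4 of the 10 members, Marco, Cd36, Scarb2 and Scarf2. The NF-kB letters also occurred once each in those of Cd36 and Scarb2, whose transcripts were not called, and Scarf2 held no match to the 6 motifs.

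The balance of Msr1 and Marco was also taken within each library, as a description. The NMO libraries held 1.02, 1.34 and 1.52 counts of Msr1 per count of Marco, and the NMO+CL libraries held 5.98, 6.12 and 7.39. Marco made up 39.6% to 49.4% of the counts of both genes in NMO and 11.9% to 14.3% in NMO+CL. This ratio is taken within a library, so no scaling between libraries enters it. The ratio was 5.05-fold higher in NMO+CL by geometric means, a log2 difference of 2.34, with SDs of 0.29 in NMO and 0.17 in NMO+CL. An exact two-sided permutation test gave p = 0.1, the smallest that 3 against 3 libraries allow, and the ratio was chosen after its values had been seen. Within each group, summed CPM of both genes varied more than the ratio, from 66.2 to 234.6 in NMO and from 270.9 to 422.6 in NMO+CL.

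**Figure D2:**
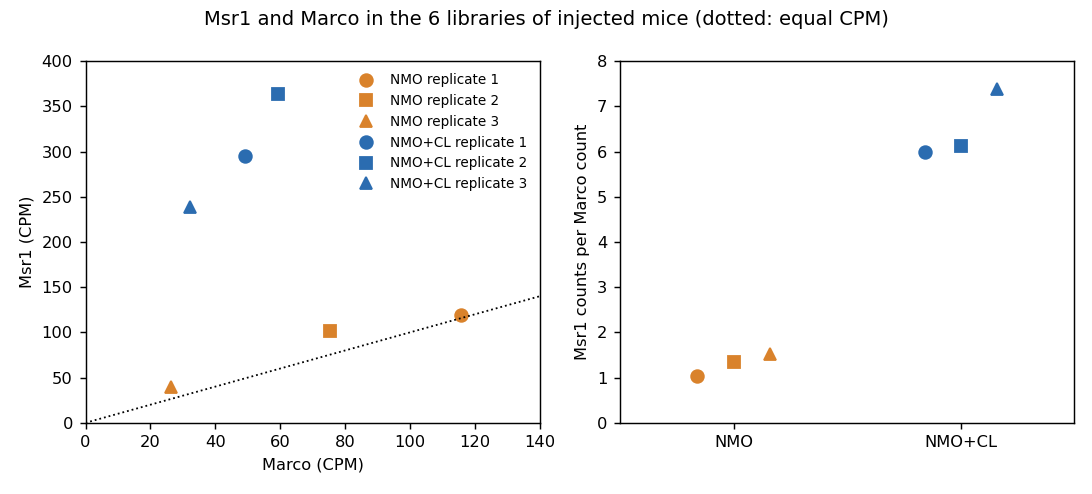
Left, Msr1 against Marco (both CPM) in the 6 libraries of injected mice, with a dotted line at equal CPM. Right, counts of Msr1 per count of Marco in each library. The NMO libraries lie along or just above the line with ratios of 1.02 to 1.52, and the NMO+CL libraries lie far above it with ratios of 5.98 to 7.39.

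Scara3, Scara5 and Colec12, the other class A members, had almost no reads. Scara3, a receptor tied to oxidative stress, had 16 counts in Normal replicate 1 and 0 in the other 8 libraries. Scara5, a ferritin receptor, had 4 counts in Normal replicate 3 and 1 in NMO replicate 2. Colec12, a collectin of the scavenger type, had 1 count each in NMO replicate 2 and NMO+CL replicate 1, and 17 other genes resembled its last 500 transcript bases. None of the 3 passed the filter, and differences between groups were not detectable at this depth.

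**Figure D3:**
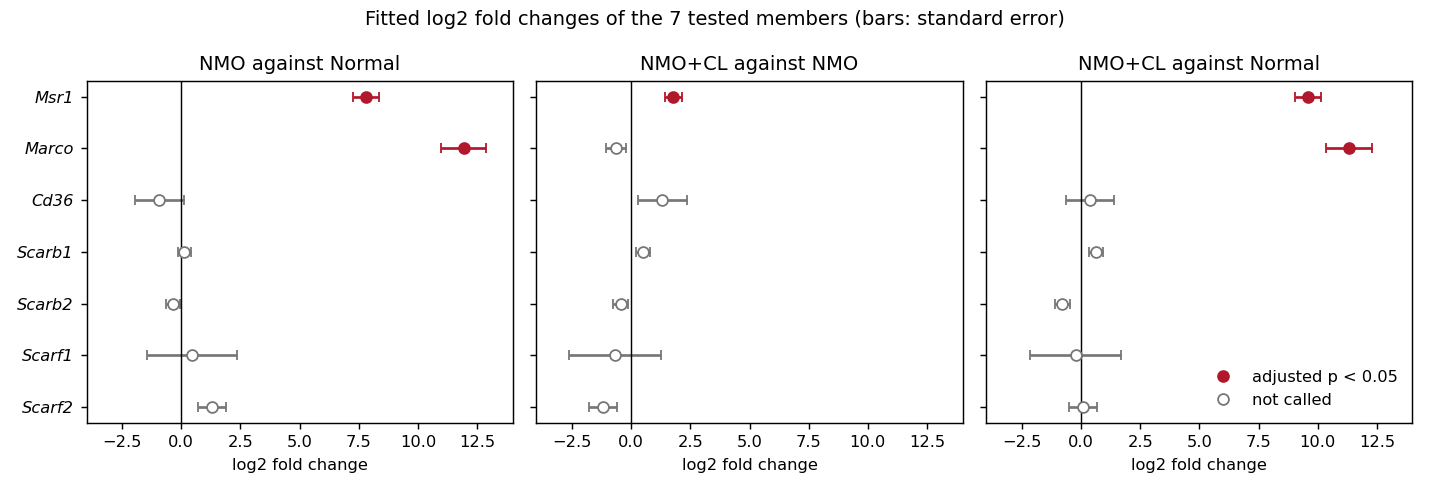
Fitted log2 fold change (x axis) with its standard error for the 7 tested members in the 3 comparisons, red where called. Msr1 is called in all 3 and Marco in the comparisons with Normal, where its size depends on the fit because Normal had 0 counts, and the other 5 members are called in none.

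Cd36 (chromosome 5, 17781690 to 17888801, minus strand), a class B receptor for fatty acids and oxidized lipoproteins, split the NMO libraries. NMO replicates 1 and 2 had 1 and 5 counts, or 0.126 and 0.597 CPM, while NMO replicate 3 had 82 counts, or 13.1 CPM. Normal libraries had 12.6, 7.21 and 6.21 CPM, and NMO+CL libraries had 17.6, 12.6 and 3.84 CPM. The 2 low NMO libraries thus lay below the other 7, and the third lay within their range. NMO replicate 3 was also the library of injected mice with the least Msr1 and Marco.

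Normal averaged 8.67 ± 3.42 CPM of Cd36, NMO 4.61 ± 7.36 and NMO+CL 11.4 ± 6.98 (SD, n = 3), and the groups overlapped. The log2 fold change was -0.93 for NMO over Normal (adjusted p = 0.902) and 1.32 for NMO+CL over NMO (adjusted p = 0.676). Both sizes depended on the single NMO libraries and on the model. Without NMO replicate 3 they were -4.50 (adjusted p = 0.0655) and 4.89, the latter called (adjusted p = 0.0265). They shrank to -0.35 and 0.75 without NMO replicate 1, and to -0.40 and 0.79 without NMO replicate 2, none called. With all libraries limma-voom gave -3.02 and 3.25 (adjusted p = 0.435 and 0.243), and a replicate block gave -1.67 and 2.19 (adjusted p = 0.803 and 0.592). For NMO+CL over Normal the value was 0.39 (adjusted p = 0.900).

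Scarb1 (chromosome 5, 125277087 to 125341094, minus strand) encodes SR-B1, the receptor for high-density lipoprotein. It had 41.2, 26.4 and 37.3 CPM in Normal, 39.7, 46.8 and 28.4 in NMO, and 58.0, 47.9 and 56.6 in NMO+CL. All NMO+CL libraries lay above the other 6, and Normal and NMO overlapped. Scarb1 differed by 0.13 on the log2 scale for NMO over Normal (adjusted p = 0.966), by 0.50 for NMO+CL over NMO (0.509) and by 0.63 for NMO+CL over Normal (0.199). None was called in any of the 16 alternatives, so no order of the 3 levels passed the test.

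Scarb2 (chromosome 5, 92441314 to 92506833, minus strand) encodes LIMP-2, an abundant protein of the lysosomal membrane. It had 70.5, 72.9 and 55.8 CPM in Normal, 59.4, 60.9 and 36.8 in NMO, and 22.6, 46.4 and 46.2 in NMO+CL. The means were 66.4 ± 9.26, 52.4 ± 13.5 and 38.4 ± 13.7 CPM (SD, n = 3), and of the pairs of groups NMO+CL and Normal did not overlap. This pair differed by -0.79 on the log2 scale (standard error 0.31, adjusted p = 0.125), which was not called. The other values were -0.34 for NMO over Normal (adjusted p = 0.849) and -0.45 for NMO+CL over NMO (adjusted p = 0.605).

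Scarf1 (chromosome 11, 75513540 to 75526582, plus strand), the endothelial receptor SREC-I, which also binds complement C1q, was sparse and uneven. It had 0, 11 and 24 counts in Normal, 44, 15 and 3 in NMO, and 0, 30 and 0 in NMO+CL. Every group thus held both a low and a higher library, and the groups overlapped. Log2 fold changes were 0.46, -0.68 and -0.23 in the 3 comparisons, with standard errors of 1.92 to 1.93 and adjusted p values from 0.949 to 0.987. These sizes also moved with the model, to 1.23, -2.69 and -1.46 with limma-voom.

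Scarf2 (chromosome 16, 17797282 to 17808293, plus strand) encodes SREC-II, a relative of SREC-I. Its level was 5.73, 9.31 and 3.19 CPM in Normal, 11.3, 15.2 and 18.5 in NMO, and 4.52, 9.06 and 5.91 in NMO+CL. The NMO libraries lay above the other 6, and Normal and NMO+CL overlapped. Scarf2 differed by 1.30 on the log2 scale for NMO over Normal (standard error 0.59, adjusted p = 0.504) and by -1.21 for NMO+CL over NMO (standard error 0.59, adjusted p = 0.424). Neither was called, here or in any of the 16 alternatives. NMO+CL over Normal gave 0.09 (adjusted p = 0.964).

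The 3 NMO libraries differed among themselves across the family. NMO replicate 3 had the lowest level of Msr1, Marco, Scarb1, Scarb2 and Scarf1 of its group and the highest of Cd36 and Scarf2. Without NMO replicate 2, the library with 41 genes at 0, Msr1 was still called for NMO over Normal (7.66 on the log2 scale, adjusted p = 1.75e-07) and for NMO+CL over NMO (1.91, adjusted p = 0.0156). Marco was likewise called for NMO over Normal (adjusted p = 3.73e-06).

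Markers of other cells were summed beside these levels. The 9 monocyte markers summed to 29.3 to 61.4 CPM in Normal, 57.4 to 123.4 in NMO and 60.7 to 113.6 in NMO+CL, and 0, 0 and 1 of them were called, the last being Fn1 in NMO+CL against Normal. The ranges of the injected groups thus reached higher than that of Normal, with an overlap. Border macrophage markers (9 genes) summed to 159.9 to 307.6 CPM in Normal, 10.8 to 198.4 in NMO and 221.4 to 411.3 in NMO+CL. None of the 6 tested was called in any comparison. Most of this sum was Cbr2, which had 124.5 to 271.8 CPM in Normal, 158.8, 0 and 155.2 in NMO, and 185.0 to 394.3 in NMO+CL. The other 8 genes summed to 23.1 to 35.8 CPM in Normal, 10.8 to 39.7 in NMO and 16.9 to 40.1 in NMO+CL. Mrc1 had at least 49 counts in every library, Cd163 had 0 counts in the 6 libraries of injected mice and up to 11 in Normal, and Clec10a and Folr2 had counts in some libraries of injected mice and 0 in Normal.

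Neutrophil markers (10 genes) ran from 100.5 to 584.1 CPM in Normal, 155.2 to 481.0 in NMO and 298.8 to 1365 in NMO+CL, with 0 of 10 called in each comparison. Endothelial markers overlapped between all groups (42.4 to 104.1 CPM), and 0 of 7 tested were called. Fibroblast and pericyte markers (9 genes) summed to 31.1 to 40.1 CPM in Normal, 2.63 to 28.8 in NMO, where each library lay below Normal, and 20.97 to 57.7 in NMO+CL. Lum was at 0 throughout, and 0 of the 6 tested were called. Astrocyte markers summed to 182.0 to 216.7 CPM in Normal, 105.8 to 134.5 in NMO and 89.1 to 131.4 in NMO+CL. Most of this sum was Slc1a3, which averaged 175.3, 107.3 and 95.3 CPM in the same order. Of 6 tested Slc1a3 and Slc1a2 were called lower in NMO+CL against Normal, where 4.43% of all tested genes were. Aqp4 went the other way, with means of 5.06, 8.47 and 7.64 CPM, and was not called. Gfap and Aldh1l1 were at or near 0 in all groups. Microglia markers were lower in the groups with more Msr1, at 32300 to 37090 CPM in Normal, 28010 to 32830 in NMO and 19280 to 26870 in NMO+CL. Of these 8 genes 1, 2 and 5 were called lower in NMO against Normal, NMO+CL against NMO and NMO+CL against Normal. Among all tested genes 0.0244%, 1.07% and 4.43% were called lower. P2ry12, which was also used in the sort, averaged 2438 ± 336.8 CPM in Normal, 1645 ± 99.99 in NMO and just 352.4 ± 91.9 in NMO+CL (SD, n = 3). The part of other cells in the Msr1 and Marco levels was not tested beyond these values.

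**Figure D4:**
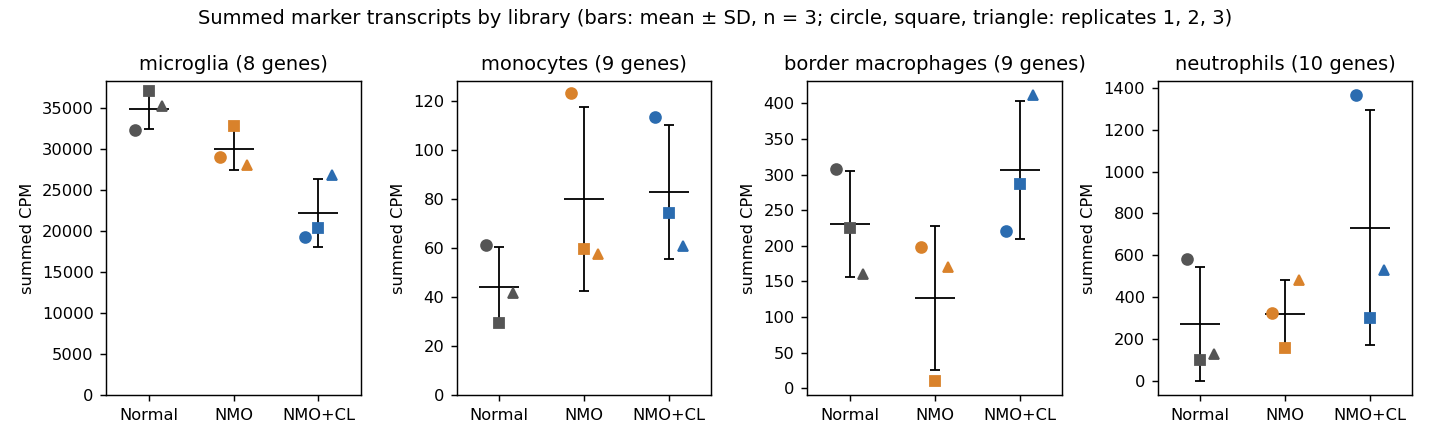
Summed CPM of the listed marker genes (y axis) by library and group for microglia, monocytes, border macrophages and neutrophils, with the mean ± SD. Microglia markers are lowest in NMO+CL, the border macrophage sum is 10.8 CPM in NMO replicate 2, where Cbr2 had 0 counts, and the neutrophil sum of NMO+CL replicate 1 reaches 1365 CPM.

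Of the other classes of scavenger receptor, 17 genes were listed and 12 tested. Called were 0 in NMO against Normal, 0 between NMO+CL and NMO, and 3 between NMO+CL and Normal. Of all 12292 tested genes 61, 196 and 1133 were called in these comparisons. Between NMO+CL and NMO 1 of the listed genes was called without the filter on low counts, and 1 without NMO+CL replicate 3. Called between NMO+CL and Normal were Stab1, a receptor for acetylated lipoprotein, and Cxcl16, a membrane-bound chemokine that binds oxidized lipoprotein, which were higher, and Fcrls, a homeostatic microglia gene, which was lower. Stab1 had 170.9 ± 23.6 CPM in Normal and 289.9 ± 86.4 in NMO+CL (0.76 on the log2 scale, adjusted p = 0.0361). Its last exon region overlaps Nt5dc2 on the opposite strand, so reads may belong to either. Cxcl16 averaged 49.3 and 109.4 CPM (1.15, standard error 0.32, adjusted p = 0.0278), and Fcrls 2335 ± 343.9 and 1445 ± 315.5 CPM (-0.69, adjusted p = 0.0173). Each of these calls was lost when single libraries were left out, among them NMO+CL replicate 2, where the adjusted p was 0.239, 0.0843 and 0.113. Median log2 fold changes of the 12 were 0.01, 0.28 and 0.22, where those of all tested genes were -0.01 in each comparison.

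Among 17 lipid handling genes, of which 16 were tested, Lpl was called in NMO against Normal. It encodes lipoprotein lipase and rose from 27.9 ± 13.6 CPM in Normal to 202.2 ± 42.5 in NMO (log2 fold change 2.86, adjusted p = 3.79e-04), and it remained above Normal in NMO+CL at 99.9 ± 37.0 CPM (1.84, adjusted p = 0.00151). Both calls held in all 16 alternatives. For NMO+CL over NMO 1 of the 16 was called, Soat1, which esterifies cholesterol, from 91.0 ± 11.8 to 189.3 ± 62.0 CPM (1.06, adjusted p = 0.0352), and 11 of 16 alternatives lost that call, with adjusted p values up to 0.203 without NMO+CL replicate 2. The number called in this comparison was 6 with no filter, 3 with limma-voom, 2 with DESeq2 and 0 with library totals or only the compared groups. For NMO+CL over Normal 3 genes were called higher, Lpl, Soat1 (1.06, adjusted p = 0.00951) and Apoe (0.93, adjusted p = 0.0225), and the sterol exporter Abcg1 was called lower (-1.21, adjusted p = 0.0170). Soat1 lost this call without NMO+CL replicate 2 (adjusted p = 0.0620). Apoe lost it in 4 alternatives, without Normal replicate 1 or 2 or NMO+CL replicate 2 or 3 (up to 0.124), and Abcg1 without Normal replicate 1 or 3 (0.0650 and 0.0853). Reads of Abcg1 may be shared, since 18 other genes resembled its 3′ end. Median log2 fold changes of the 16 were -0.02, -0.01 and 0.29. Of all 12292 tested genes 61, 196 and 1133 were called in the 3 comparisons, with a median of -0.01 in each.

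Of 12 co-receptor and signalling genes, all tested, 0, 0 and 3 were called by edgeR, beside 61, 196 and 1133 of all 12292 tested genes. In NMO against Normal 1 was called with no filter and with DESeq2, and between NMO+CL and NMO 1 was called with no filter and 2 each with DESeq2 and limma-voom. For NMO+CL over Normal Tlr2, a partner of Cd36 in sensing bacterial lipids, rose (1.63, adjusted p = 0.00361), and Trem2 (-0.92, adjusted p = 0.00165) and Cd9 (-1.19, adjusted p = 0.0213) fell. The Cd9 call was lost without Normal replicate 1 or 3 (adjusted p = 0.0628 and 0.115), and its 3′ end resembles the pseudogene Cd9-ps. Median log2 fold changes of the 12 were 0.09, -0.08 and 0.11, beside -0.01 in each comparison for all tested genes.

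**Figure D5:**
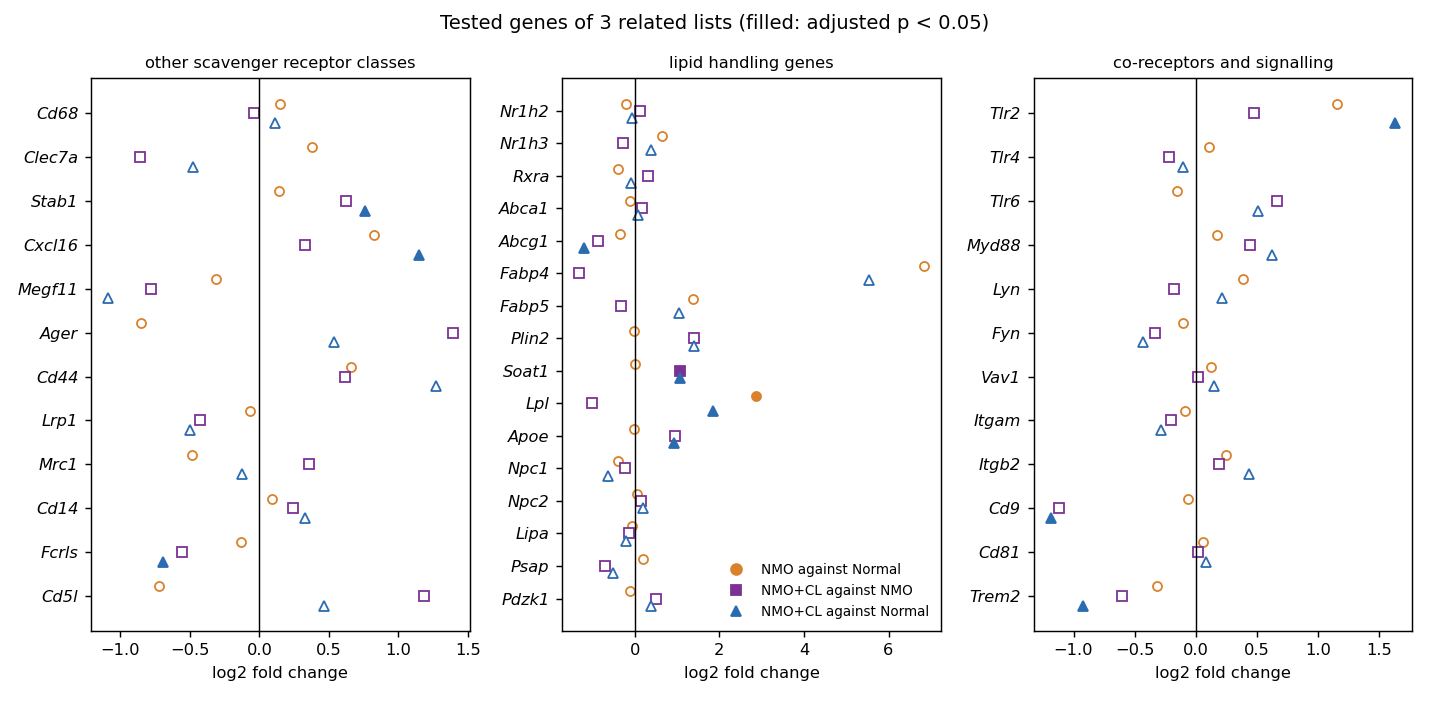
Log2 fold change (x axis) of the tested genes of the other scavenger receptor classes (12), lipid handling genes (16) and co-receptor and signalling genes (12), with one symbol per comparison, filled where called. Lpl stands out in NMO against Normal at 2.86, and the values of Fabp4 against Normal rest on a group with 0 counts.

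The genes whose levels followed Msr1 and Marco most closely were sought among 8841 genes with a mean of at least 50 counts, by Pearson's r of log2 CPM over the 9 libraries, which mostly reflects the differences between the 3 groups. For Msr1 these were Mogs (r = 0.988), an enzyme of N-glycan trimming, Hyou1 (0.986), a chaperone of the endoplasmic reticulum, and Nap1l1 (0.983), a histone chaperone whose 3′ end is shared with Gm4204. Mogs averaged 78.2 ± 5.92 CPM in Normal, 173.4 ± 19.9 in NMO and 253.7 ± 20.8 after clodronate liposomes, the same order of means as for Msr1. For Marco they were Rrs1 (0.982), a ribosome assembly factor, Arl14ep (0.973) and Tfrc (0.966), the transferrin receptor. Tfrc had 9.41 ± 1.87, 58.9 ± 7.62 and 49.6 ± 11.2 CPM in the same order of groups.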

How the data were processed

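The authors prepared QuantSeq 3′ libraries, sequenced single-end reads, aligned them with Bowtie2 and counted them per gene with Bedtools coverage from unique and multiple alignments. The submitters' processing notes name mm10, which is GRCm38. The annotation, the tool versions and the use of strand are not given in the sources used here. The deposited values are raw read counts, 23282 entries for 23238 symbols in each of 9 libraries, and 35 symbols on several entries were summed. A read with several alignments may be counted at each gene.

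The tests were run in edgeR 4.0.16 under R 4.3.3. Genes passing filterByExpr (minimum count 10, minimum total 15) numbered 12292. TMM factors scaled the libraries, and 1 quasi-likelihood model with a coefficient per group was fitted to all 9 libraries. The common biological coefficient of variation was 0.519. Tests were two-sided F-tests, with Benjamini-Hochberg adjustment across the tested genes of each comparison, and the standard error is the log2 fold change divided by the square root of F. The model was tested on simulated data. Alternatives were RLE scaling, library totals, no filter, the DESeq2 1.42.0 Wald test, limma-voom (limma 3.58.1), only the compared groups, a replicate block, and each library left out.

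The replicate numbers do not pair the libraries. Correlations of deviations between same-numbered libraries ran from -0.0148 to 0.0302. Chi-square per degree of freedom between replicates was 21.9 to 51.1, so each library counted as its own replicate. Replicates were separate pools of mice. Coordinates and 3′ end checks (last 500 bases, at least 60 bases at 90% identity) used GENCODE M21, which need not be the authors' annotation. No member's 3′ end overlapped an exon of another gene. Named were all members, called genes of the lists and the 3 genes most like each called member. One further gene of the lipid list is not reported here, and the 17 genes, their counts and their medians do not include it. The members and lists were chosen with earlier results of these data known.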

Additional observations from a re-analysis of the deposited data

How the results depend on the processing

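Each of the 7 tested members was recomputed in 3 comparisons under 16 alternatives. Of 336 values, 321 kept their direction and their side of the threshold, 11 changed sign, 3 lost a call and 1 gained one. With limma-voom 0 members were called in NMO against Normal instead of 2, and leaving out single libraries gave 0 to 2 instead of 1 in NMO+CL against NMO. The changes of sign came with single libraries left out, among members that were not called. The ranges were -0.042 to 0.31 for Scarb1 and -0.74 to 1.61 for Scarf1 in NMO against Normal, -7.16 to 0.52 for Scarf1 in NMO+CL against NMO, and -0.073 to 0.80 for Cd36, -6.71 to 0.94 for Scarf1 and -0.22 to 0.54 for Scarf2 in NMO+CL against Normal.

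With a replicate block the log2 difference of Msr1 between NMO and Normal was 7.72, and the block changed no call of a member. Over all genes 61 were called in NMO against Normal, from 20 (without Normal replicate 3) to 223 (no filter; 222 with DESeq2), 196 in NMO+CL against NMO, from 51 (without NMO+CL replicate 2) to 496 (no filter; 465 with DESeq2), and 1133 in NMO+CL against Normal, from 649 (without Normal replicate 3 or NMO+CL replicate 2) to 1576 (DESeq2; 1448 with no filter). The cause was not tested. Members with a few counts per library, such as Scarf1, are limited by depth and by spread between libraries.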
